A study of Mus musculus with 8 samples.

Results

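Heat shock proteins and cytosolic chaperones were followed as a set of 34 genes, chosen by name: the HSP70, HSP90 and J-domain chaperones, the chaperonins, their co-chaperones and the heat shock factors. Each of the 34 was found once among the 54532 genes of the deposited table, and 33 had enough reads to be tested. The cells were splenic CD4+ T cells of wild-type (WT) mice, given vehicle or dimethyl succinate, an ester of succinate that crosses cell membranes, for 3 days. Their RNA was sequenced in bulk in 4 libraries per treatment. The headers of the authors' deposited comparison name the control as DMSO. The strain, the age of the mice, the dose and the medium are not given in the sources used here, and the labels do not say whether each library had its own mouse or culture. The p-values therefore reflect the spread among these 8 libraries, part of which may be technical.

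Chaperones bind proteins that are not yet folded or have lost their fold. HSP70 proteins hold short greasy stretches of a client and release them with ATP; J-domain proteins deliver the client, nucleotide exchange factors reset the cycle, and HSP90 receives clients such as kinases and steroid receptors at a later stage. The ring-shaped chaperonin TRiC encloses actin and tubulin while they fold, and HSP60 with HSP10 does the same inside mitochondria. When unfolded proteins build up, the transcription factor HSF1 forms a trimer, binds heat shock elements in promoters and switches on the inducible members, while others are made at all times. In T cells, activation and growth raise the demand for protein folding, and warming, oxidation or rough handling can set off the same genes.

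Library totals were 13407295 to 16688854 counts, and levels are given as CPM, a gene's count as a share of its library's scaled total. The CD4 T cell markers (Cd3d, Cd3e, Cd3g, Cd4, Trac, Trbc1, Trbc2 and Lck) summed to 2144 to 2279 CPM in 7 libraries and to 1813 CPM in vehicle replicate 4, whereas the summed markers of CD8 T cells, natural killer cells, B cells, neutrophils, dendritic cells, erythroid cells, and monocytes with macrophages each stayed at or below 7.54 CPM. Vehicle replicate 4 stood apart from the other libraries. Mitochondrially encoded transcripts made up 0.252% of its counts against 1.16 to 1.48% elsewhere, and its summed platelet markers reached 49.6 CPM against 22.1 to 29.1 CPM. The platelet sum was carried by Itga2b, at 39.72 CPM against 17.25 to 24.86, and Pf4, at 9.322 against 3.211 to 6.352. The platelet marker Ppbp was lowest there, at 0.2783 against 0.3415 to 0.8307 CPM, and Gp9 lay within the range of the others. Of the 8 CD4 T cell markers, 6 were lower in vehicle replicate 4 than in any other library, Cd4 being at 316.8 against 438.8 to 488.9 CPM. Cd3d was highest there, at 207 against 159.7 to 185.4 CPM. Trbc1, at 248.6 CPM, lay within the range of the others, 217.4 to 249.6 CPM. Early response genes can be switched on by handling but are not specific to it. Their sum was 1695 CPM in vehicle replicate 4 and 1665 CPM in dimethyl succinate replicate 1. In the other 6 libraries it was 1476 to 1524 CPM. In vehicle replicate 4 that sum was carried mainly by Jund, at 219.9 CPM against 107.2 to 133.4, and Ier2, at 234.2 against 139.6 to 155.7, whereas Egr1, at 111.5 against 154.2 to 198 CPM, and Dusp1 were lowest there. The results are therefore given with and without vehicle replicate 4, and the part of these features in the chaperone values was not tested. In bulk RNA, fewer cells with a transcript and less of it per cell cannot be told apart.

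The binding sites of HSF1 are built from repeats of GAA and its complement TTC. RefSeq promoter windows (build GRCm38.p6, 250 bases before to 50 bases after the transcription start) were found for 27 of the 34 members and searched on both strands. No window was found for Hsp90aa1, Hsp90ab1, Hspa8, Hspa9, St13, Cct4 and Hsf1, so these were not searched. An element of 2 units, GAANNTTC or TTCNNGAA, was present in 14 of the 27 (51.9%) and in 17.0% of 27025 genes, or 15.1% of 32544 windows. An element of 3 units, GAANNTTCNNGAA or TTCNNGAANNTTC, which contains an element of 2 units, was present in 5 of the 27 (18.5%) and in 0.662% of genes, or 0.608% of windows. The 5 were Hsph1, Hspd1, Hspe1, Dnajb6 and Chordc1. A match describes the letters in the window and is not a measured binding site. Only exact repeats were counted, so an element with a changed letter would be missed. The sequences below are 5′ to 3′ on the strand of the gene. The first 2 are shown because Hspa1a and Hspa1b, the stress-inducible HSP70 genes, had the highest fold changes of the set; the others carry the 3-unit elements. Capitals mark the element. That of Hspd1 is within the bases shown for Hspe1, and the 30-base stretches of Chordc1, Hsph1 and Dnajb6 hold only the element and its surroundings.
Hspa1a, chr17:34972157-34972406, minus strand: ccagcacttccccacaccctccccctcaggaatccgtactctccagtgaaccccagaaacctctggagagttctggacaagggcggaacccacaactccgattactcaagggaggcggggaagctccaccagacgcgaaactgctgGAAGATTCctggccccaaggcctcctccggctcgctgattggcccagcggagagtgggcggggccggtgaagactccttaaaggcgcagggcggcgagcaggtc
Hspa1b, chr17:34959239-34959488, minus strand: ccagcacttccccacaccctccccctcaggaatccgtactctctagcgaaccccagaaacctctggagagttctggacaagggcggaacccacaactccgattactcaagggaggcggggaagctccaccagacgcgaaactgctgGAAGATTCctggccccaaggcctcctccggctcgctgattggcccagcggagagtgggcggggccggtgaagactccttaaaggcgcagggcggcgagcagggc
Hspe1, chr1:55087898-55088147, plus strand: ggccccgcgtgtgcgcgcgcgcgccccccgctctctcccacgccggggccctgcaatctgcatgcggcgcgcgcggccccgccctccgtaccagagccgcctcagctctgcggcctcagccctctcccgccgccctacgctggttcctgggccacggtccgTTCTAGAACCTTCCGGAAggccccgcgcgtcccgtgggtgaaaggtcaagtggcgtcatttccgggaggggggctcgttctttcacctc
Chordc1, chr9:18292260-18292289, plus strand: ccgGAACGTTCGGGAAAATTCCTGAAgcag
Hsph1, chr5:149636287-149636316, minus strand: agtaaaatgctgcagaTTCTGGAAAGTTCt
Dnajb6, chr5:29735844-29735873, plus strand: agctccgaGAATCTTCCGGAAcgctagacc

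**Figure D1:**
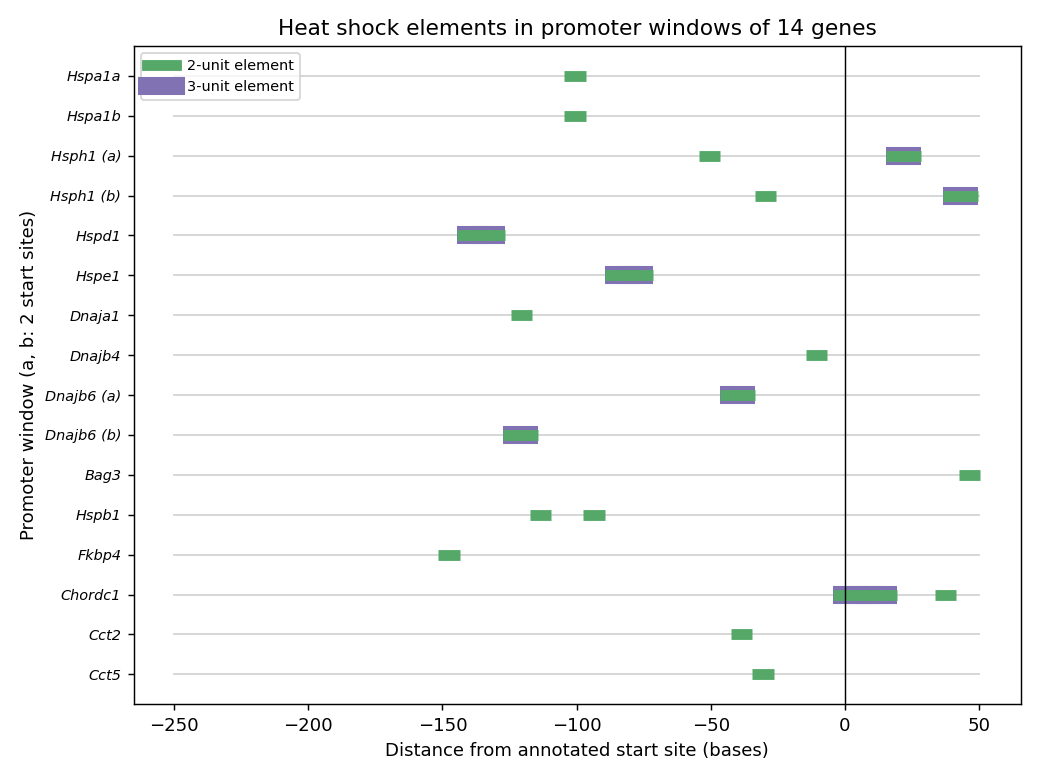
Position of 2-unit and 3-unit heat shock elements in the promoter windows of the 14 members that hold one, with the distance from the annotated start site in bases on the horizontal axis and 1 line per window (a and b where a gene has 2 windows with an element). Hspa1a and Hspa1b carry theirs at the same place, from position -104, and the 3-unit elements belong to Hsph1, Hspd1, Hspe1, Dnajb6 and Chordc1. Members for which no window was found, Hsp90aa1 and Hspa8 among them, were not searched and are not shown.

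The 250 bases upstream of Hspa1a and Hspa1b differed at 3 positions (98.8% identical), and their start sites lay 12918 bases apart. Hspd1 and Hspe1 are transcribed away from each other. An Hspd1 window, of 2 for that gene, shared 285 bases with that of Hspe1, from a start site 216 bases away, and the 18 element bases counted for each gene are the same bases of the genome. By element, the median log2 fold change of dimethyl succinate against vehicle was -0.10 over the 5 members with a 3-unit element, -0.08 over the 8 tested members with only a 2-unit element and -0.12 over the 13 with neither, with 0, 3 and 5 of them above 0. Without vehicle replicate 4 the medians were -0.01, 0.01 and 0.02 in the same order, and 2, 4 and 7 members lay above 0. The groups rest on exact repeats, so members with neither may still hold elements with changed letters. Differences between these groups were not tested.

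Before any comparison, the set spanned a wide range of levels. On the FPKM scale, which divides by gene length and so lets genes be compared, the cytosolic HSP90 gene Hsp90ab1 was highest, at 1338 ± 147 in vehicle cells and 1296 ± 33.5 with dimethyl succinate (SD, n = 4). Hspa8, the HSP70 that is made at all times, followed at 511 ± 44.7 and 544 ± 8.53 FPKM. The TRiC subunit Cct2, the inducible HSP90 gene Hsp90aa1, the HSP60 gene Hspd1 and the mitochondrial HSP70 gene Hspa9 came next under vehicle, at 251, 239, 230 and 217 FPKM, and neighbours in that order differed by less than their SD. The inducible HSP70 genes stood near the bottom, Hspa1a at 0.877 FPKM under vehicle and 1.16 under dimethyl succinate, and Hspa1b at 3.003 and 3.77 FPKM. Hspb1, the small heat shock protein HSP27, was last at 0.169 and 0.227 FPKM. It had 2, 2, 3 and 3 counts in vehicle replicates 1 to 4 and 4, 4, 6 and 1 in dimethyl succinate replicates 1 to 4, too few to test. As a whole, the 34 genes took 1.36, 1.39, 1.42 and 1.59% of the counts in vehicle replicates 1 to 4 and 1.38, 1.39, 1.40 and 1.44% in dimethyl succinate replicates 1 to 4. The highest share was that of vehicle replicate 4, and the other 3 vehicle libraries overlapped with the dimethyl succinate libraries.

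**Figure D2:**
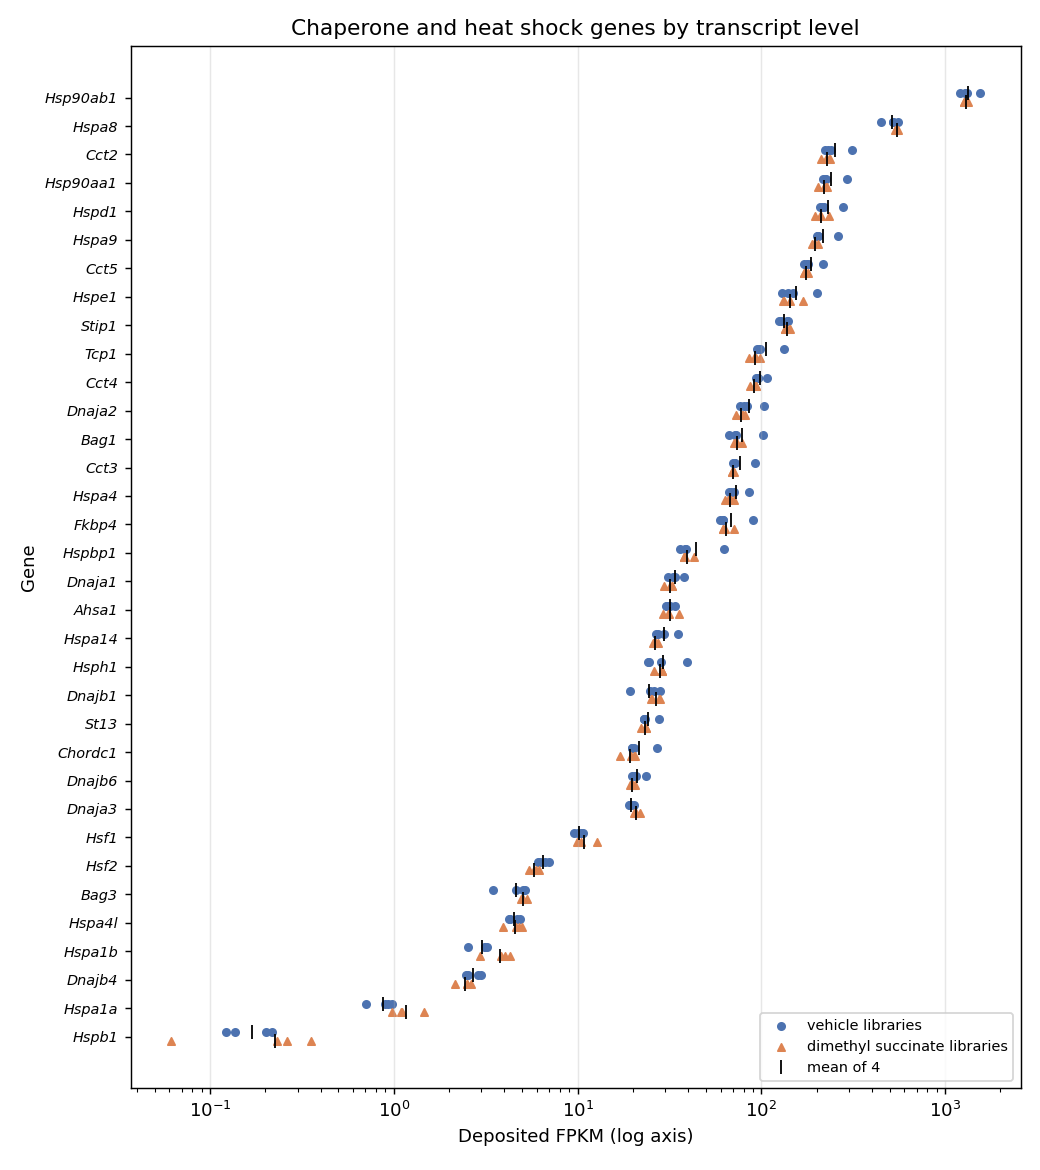
Deposited FPKM of each of the 34 genes on a log axis, ordered by vehicle mean, with circles for vehicle libraries, triangles for dimethyl succinate libraries and a bar at each mean. Levels run from Hsp90ab1 at the top to Hspb1 at the bottom, and for most genes the circle farthest to the right is a single vehicle library.

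No member differed between treatments past an adjusted p of 0.05 by edgeR's quasi-likelihood test with Benjamini-Hochberg adjustment over all 13981 genes tested. The smallest adjusted p among members was 0.802. No gene of the table passed either (0% of 13981). DESeq2 called 4 of the 13981 genes, limma-voom 0 and limma-voom with library quality weights 40, and 0 of these were members. At an unadjusted p below 0.05, 1 of 33 members was higher, Hspa1b, beside 2.93% of all genes, and 0 were lower, beside 2.83% of all genes. Hsph1 was the member that met that bound on the higher side without vehicle replicate 4, beside 4.43% of all genes, and 0 of 33 were lower, beside 4.12%. In that fit 28 of 14232 genes (0.197%) passed the adjusted threshold, none of them a member. The largest log2 fold change of a member was 0.40, for Hspa1a. The 95% interval excluded a 1.5-fold difference in either direction for 31 of 33 members, all but Hspa1a and Hspa1b, and a 2-fold difference for 33 of 33.

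The direction of the set depended on vehicle replicate 4. With all libraries 10 members lay above 0 and 23 below, with a median log2 fold change of -0.09, whereas 49.6% of all genes lay above 0 with a median of 0.00. Without that library 17 members lay above 0 and 16 below, with a median of 0.01. The median size of the log2 fold change, whatever its sign, was 0.11 for members beside 0.10 for all genes with 8 libraries, and 0.04 beside 0.08 without vehicle replicate 4. No member had its 4 dimethyl succinate values above its 4 vehicle values, beside 2.5% of all genes. Cct4 alone had them below, beside 2.32% of all genes.

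**Figure D3:**
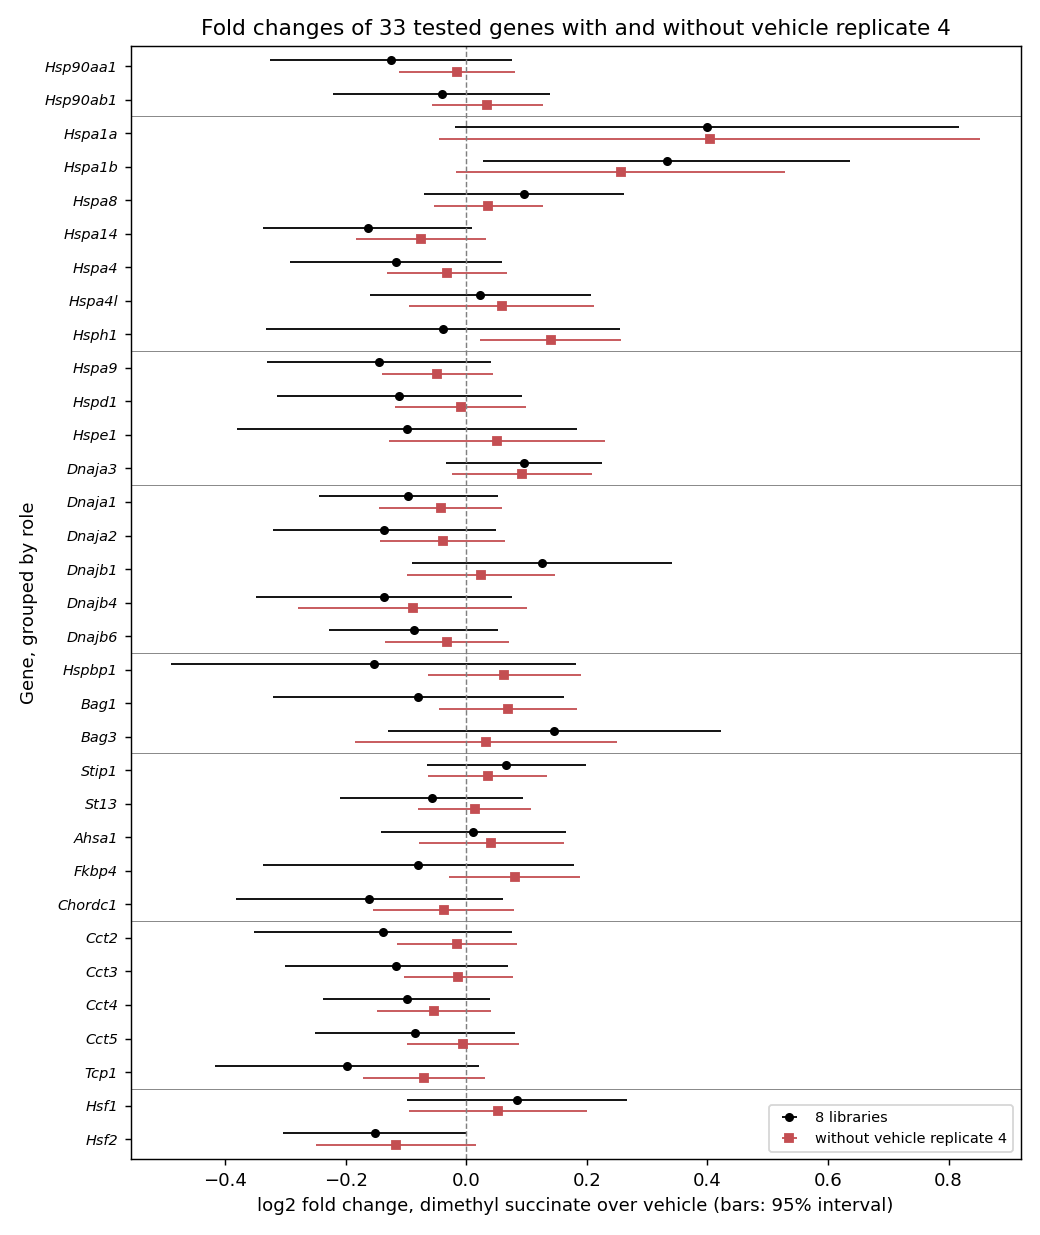
Log2 fold change of dimethyl succinate against vehicle with its 95% interval for the 33 tested members, grouped by role, with all 8 libraries and without vehicle replicate 4. Most points with all libraries lie left of 0 and move towards 0 once that library is left out, while Hspa1a and Hspa1b stay right of it.

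Vehicle replicate 4 lay above the other 7 libraries for 23 of 33 members (69.7%) and below them for 6, Hspa1b, Hspa8, Dnajb1, Bag3, Stip1 and Hsf1. Among all tested genes it lay above the other 7 for 29.0%, and among the 8915 genes of at least 10 CPM for 35.5%. Against the mean of the other vehicle libraries its log2 level was higher by 0.72 for Hspbp1, 0.61 for Hsph1, 0.55 for Fkbp4 and 0.52 for Hspe1. It was lower by a log2 difference of -0.51 for Bag3, -0.45 for Dnajb1, -0.32 for Hspa1b and -0.25 for Hspa8. The members thus did not move as a block in that library. The median coefficient of variation of members among vehicle libraries was 12.3% with it and 3.86% without it, beside 4.73% among the dimethyl succinate libraries, and it was smaller without it for 31 of 33 members.

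**Figure D4:**
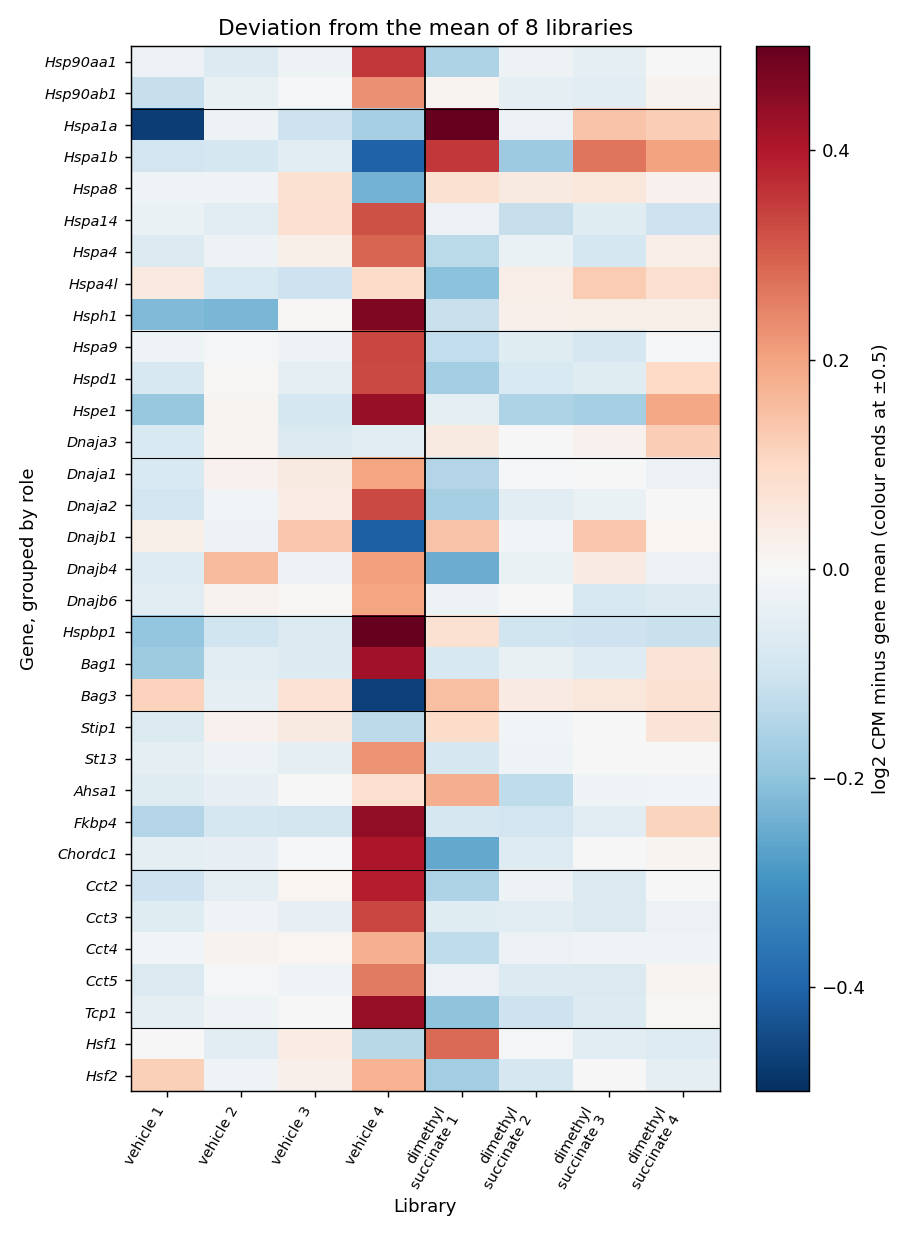
Log2 CPM of each tested member minus its mean over the 8 libraries, as colour that ends at 0.5 in either direction, with genes by role on the vertical axis and vehicle replicates 1 to 4 and dimethyl succinate replicates 1 to 4 on the horizontal axis. Vehicle replicate 4 is high for most members and low for Bag3, Dnajb1, Hspa1b and Hspa8, while Hspa1a is lowest in vehicle replicate 1 and highest in dimethyl succinate replicate 1.

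Among the HSP70 genes, those induced by stress had the highest fold changes of the set. Hspa1a was at 2.12, 2.93, 2.77 and 2.64 CPM in vehicle replicates 1 to 4 and at 4.37, 2.92, 3.30 and 3.26 CPM in dimethyl succinate replicates 1 to 4. Dimethyl succinate replicates 1, 3 and 4 exceeded all of the vehicle libraries, and replicate 2 lay within the vehicle range. The difference on the log2 scale was 0.40 ± 0.19 (SE; 95% interval -0.02 to 0.82), with an adjusted p of 0.802 (edgeR). Counts were low, 30 to 46 in the vehicle libraries and 49 to 64 in those with dimethyl succinate.

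Hspa1b, which encodes nearly the same protein, was at 8.82, 8.85, 9.05 and 7.10 CPM under vehicle and at 12.1, 8.29, 11.4 and 10.9 CPM under dimethyl succinate, in the order of the replicates. The same 3 libraries as for Hspa1a were above all vehicle libraries, and dimethyl succinate replicate 2 was below vehicle replicates 1 to 3. Its log2 fold change was 0.33 ± 0.14 (95% interval 0.03 to 0.64), with an unadjusted p of 0.0344 and an adjusted p of 0.802 (edgeR). Without vehicle replicate 4 it was 0.26 ± 0.13, and the unadjusted p was 0.0645. The authors' deposited table gives a log2 fold change of 0.33 for Hspa1b and 0.40 for Hspa1a. The adjusted p entered there for both, 1, can stand for a missing value and is not used.

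The reads of this pair cannot be fully told apart. Of the 50-base windows in the exons of Hspa1a, 58.8% occurred also in Hspa1b, so their counts depend on whether the authors split, dropped or repeated reads that fit both, which is not given in the sources used here. Of the exon bases of Hspa1a, 19.0% lie opposite Gm20481 on the other strand, and part of that stretch is also shared with Hspa1b. Whether the counting used strand is not given either. The sum of both genes does not change with how reads are split between them, but would lack any that were dropped and be raised by any that were repeated. It was 10.9, 11.8, 11.8 and 9.74 CPM under vehicle and 16.5, 11.2, 14.7 and 14.1 CPM under dimethyl succinate, again with replicate 2 inside the vehicle range. Fitted as a single gene in the whole table, the sum had a log2 fold change of 0.35 ± 0.13, an unadjusted p of 0.0178 and an adjusted p of 0.803 (edgeR). Without vehicle replicate 4 these were 0.29 ± 0.12, 0.0237 and 0.497.

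**Figure D5:**
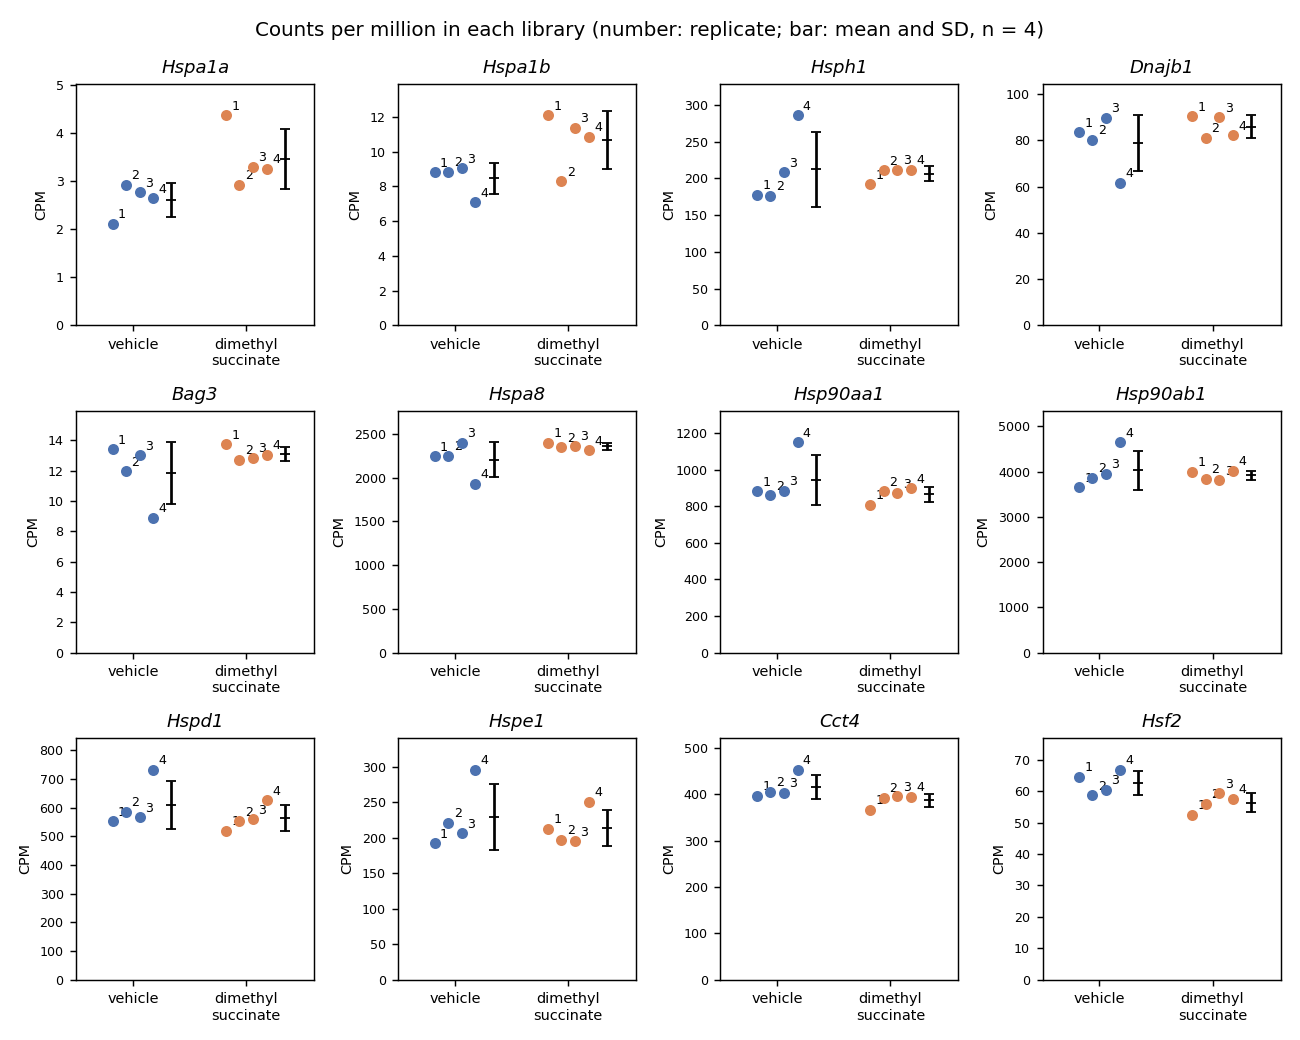
Level in CPM of 12 members in every library, each point with its replicate number and each group with its mean and SD (n = 4). Hspa1a and Hspa1b are higher in dimethyl succinate replicates 1, 3 and 4 than in any vehicle library, whereas for Hsp90aa1 and Hsph1 the library that differs most is vehicle replicate 4.

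The other members of the HSP70 and HSP110 families differed less. Hspa8, which carries out most of the folding work of HSP70 in unstressed cells, was at 2244, 2253, 2402 and 1932 CPM under vehicle and at 2401, 2350, 2369 and 2313 CPM under dimethyl succinate. Its lowest value was that of vehicle replicate 4, and the remaining libraries overlapped. On the log2 scale the difference was 0.10 ± 0.08, and 0.04 without that library.

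Hsph1, an HSP110 protein that exchanges nucleotide on HSP70, was at 178, 177, 208 and 286 CPM under vehicle and at 192, 211, 212 and 212 CPM under dimethyl succinate. Vehicle replicate 4 was far above all others, and the sign of the difference turned with it. The log2 fold change was -0.04 ± 0.13 with all libraries and 0.14 ± 0.06 without it, where the unadjusted p was 0.0211 and the adjusted p 0.483 (edgeR). In that fit dimethyl succinate replicate 1 lay below vehicle replicate 3, so the groups still overlapped.

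Hspa4 and Hspa4l, which are also HSP110 proteins, had log2 fold changes of -0.12 and 0.02, and Hspa14, an HSP70 found at the ribosome, of -0.16 (-0.08 without vehicle replicate 4). None of these had an unadjusted p below 0.05 in the edgeR fit of all libraries or in that without vehicle replicate 4. With no low-count filter that of Hspa14 was 0.0391, with an adjusted p of 0.745 (edgeR). As a group, 4 of 7 HSP70 and HSP110 genes lay above 0, and 5 of 7 without vehicle replicate 4.

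Both HSP90 genes lay slightly below 0. Hsp90aa1, the inducible form, was at 882, 860, 885 and 1150 CPM under vehicle and at 809, 884, 873 and 899 CPM under dimethyl succinate. Apart from vehicle replicate 4 the libraries of the 2 treatments overlapped. Treated and vehicle cells differed by -0.12 ± 0.09 on the log2 scale, and by -0.02 without it. Hsp90ab1, the form made at all times, was at 3656, 3865, 3948 and 4644 CPM under vehicle and at 3999, 3840, 3809 and 4015 CPM under dimethyl succinate. Its log2 fold change of -0.04 ± 0.08 turned to 0.04 without vehicle replicate 4. The ratio of Hspa8 to Hsp90ab1 counts was 0.416 in vehicle replicate 4 and 0.576 to 0.622 in the other 7 libraries, so that library had less of the HSP70 for its amount of HSP90.

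The co-chaperones that link HSP70 with HSP90 were divided in sign. Stip1 (HOP), which bridges both chaperones, was at 0.07 and Ahsa1 (AHA1), which speeds up the ATPase of HSP90, at 0.01 on the log2 scale. St13 (HIP), which steadies HSP70 on its client, was at -0.06, the FK506-binding immunophilin Fkbp4 at -0.08 and the HSP90 partner Chordc1 at -0.16. Without vehicle replicate 4, which was above all other libraries for St13, Fkbp4 and Chordc1, 4 of the 5 lay above 0 and Chordc1 was at -0.04. No co-chaperone had an unadjusted p below 0.05 in either fit.

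Of the J-domain proteins, Dnajb1 (HSP40), an inducible partner of HSP70, was at 83.5, 80.2, 89.8 and 61.7 CPM under vehicle and at 90.4, 81.1, 89.9 and 82.3 CPM under dimethyl succinate. Vehicle replicate 4 was the lowest library and vehicle replicate 2 the next, just under the lowest dimethyl succinate value, and vehicle replicates 1 and 3 lay within the dimethyl succinate range. Its log2 fold change was 0.12 ± 0.10, and 0.02 without that library. The remaining 4, Dnaja1, Dnaja2, Dnajb4 and Dnajb6, lay between -0.14 and -0.09, and between -0.09 and -0.03 without vehicle replicate 4. Of these, vehicle replicate 4 was the highest library for each.

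Nucleotide exchange factors make HSP70 let go of ADP and its client. Bag3, an inducible member that also directs clients to autophagy, was at 13.4, 12.0, 13.0 and 8.90 CPM under vehicle and at 13.7, 12.7, 12.8 and 13.0 CPM under dimethyl succinate. The difference rested on the low value of vehicle replicate 4: the log2 fold change was 0.15 ± 0.13 with it and 0.03 without it. Bag1 and Hspbp1 were the reverse, highest in vehicle replicate 4, and their log2 fold changes of -0.08 and -0.15 became 0.07 and 0.06 without it.

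In mitochondria, Hspd1 (HSP60) and Hspe1 (HSP10) form the chamber in which imported proteins fold. Hspd1 was at 552, 585, 566 and 733 CPM under vehicle and at 519, 553, 559 and 625 CPM under dimethyl succinate, and Hspe1 at 192, 222, 206 and 296 CPM and at 213, 197, 195 and 251 CPM. For each gene vehicle replicate 4 was highest and dimethyl succinate replicate 4 next, and the other libraries overlapped. Their log2 fold changes were -0.11 ± 0.09 and -0.10 ± 0.13, and -0.01 and 0.05 without vehicle replicate 4. The ratio of Hspd1 to Hspe1 counts stayed between 2.44 and 2.87 in all 8 libraries. Hspa9 (mortalin), which pulls proteins into the matrix, was at -0.14 and its J-domain partner Dnaja3 at 0.10, neither with an unadjusted p below 0.05.

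The TRiC subunits were the role in which all measured members kept a common sign. Tcp1, Cct2, Cct3, Cct4 and Cct5 lay between -0.20 and -0.09 with all libraries and between -0.07 and -0.01 without vehicle replicate 4, which was the highest library for each of the 5. They stayed below 0 under every alternative that was run. None had an unadjusted p below 0.05 with all libraries or without vehicle replicate 4, whereas Tcp1 had one of 0.02 with no low-count filter and 0.0436 without vehicle replicate 1, with adjusted p of 0.745 and 0.689 (edgeR). Cct4, singled out after its values were seen, was at 397, 405, 404 and 453 CPM under vehicle and at 366, 392, 396 and 395 CPM under dimethyl succinate. Its groups did not overlap with or without vehicle replicate 4, by a margin that is small beside the spread within each group. Its log2 fold change was -0.10 ± 0.06, with an adjusted p of 0.802 (edgeR), and -0.05 without that library. The ratio of Cct4 to Tcp1 counts was 0.675 in vehicle replicate 4 and 0.792 to 0.849 in the others.

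The heat shock factors themselves lay on either side of 0. Hsf1, the main regulator of the response, was at 74.7, 71.7, 76.6 and 67.8 CPM under vehicle and at 90.9, 74.4, 71.8 and 71.3 CPM under dimethyl succinate, with only dimethyl succinate replicate 1 outside the vehicle range. The log2 fold change was 0.08 ± 0.08, and 0.00 without dimethyl succinate replicate 1. Hsf2, which can join HSF1 in mixed trimers, was at 64.5, 58.6, 60.4 and 66.9 CPM under vehicle and at 52.5, 56.0, 59.4 and 57.5 CPM under dimethyl succinate. Only dimethyl succinate replicate 3 lay above the lowest vehicle library, vehicle replicate 2. The log2 difference was -0.15 ± 0.07, with an unadjusted p of 0.0517 (edgeR), and -0.12 ± 0.06 without vehicle replicate 4. With RLE in place of TMM scaling the unadjusted p was 0.0490 and the adjusted p 0.797 (edgeR). HSF1 is controlled mainly by its trimers and their phosphorylation, which transcript levels do not measure.

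Read sharing limits other members too. Of the 50-base exon windows of Hsp90aa1, 41.8% occurred also in the pseudogene Gm12346, and 38.0% of those of Hspd1 in Hspd1-ps3. For Hspa8 39.4% of windows occurred elsewhere in the transcripts, for Hspe1 22.8%, for Dnajb6 20.97%, for Dnaja1 20.6% and for the untested Hspb1 50.1%. In Hspa8, 6.09% of exon bases overlap the small nucleolar RNAs Snord14c, Snord14d and Snord14e on the same strand, and in Tcp1 14.2% lie opposite Acat3 and Mrpl18. The values of these genes are therefore uncertain where the authors' counting could split reads between copies.

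The wider chaperone network was read from 75 further genes, of which 66 were tested. In it, 23 of 66 lay above 0 with all libraries and 30 of 66 without vehicle replicate 4, with medians of -0.05 and -0.01. At an unadjusted p below 0.05, 0 were higher, beside 2.93% of all genes, and 2 were lower, beside 2.83%, so the 2 of 66 are near the share of all genes. Without vehicle replicate 4, 0 were higher, beside 4.43% of all genes, and 2 were lower, beside 4.12%. Of these 2, 1 was a mitochondrial gene and 1 a chaperone of the endoplasmic reticulum. Clpx, which unfolds proteins for the mitochondrial protease ClpP, averaged 97.8 ± 17.4 CPM in the vehicle libraries and 81.2 ± 0.822 CPM with dimethyl succinate (SD, n = 4). Its log2 fold change was -0.27 ± 0.10, and -0.14 ± 0.05 without vehicle replicate 4, with an adjusted p of 0.802 with all libraries (edgeR), and it was the only gene of the 66 whose groups did not overlap, beside 2.32% of all genes on the lower side. Dnajc2, a J-domain protein of the ribosome, averaged 140 CPM under vehicle and 122 CPM under dimethyl succinate, with a log2 fold change of -0.19 ± 0.08, and -0.13 ± 0.06 without that library. None of the other genes named from these lists, those of smallest unadjusted p in each, had one below 0.05 with all libraries. Those above 0 were the ClpP protease Clpp at 0.17, the co-chaperone Sgta at 0.12, the heat shock factor Hsf4 at 0.13, the small heat shock protein Hspb6 at 0.10 and the HSF1-binding protein Hsbp1 at 0.04, and those below were Bag5 at -0.28 and the J-domain protein Dnajc21 at -0.19. Hsf4 and Hspb6 were low, at 0.807 and 3.64 CPM under vehicle, with SE of 0.37 and 0.22. Without vehicle replicate 4, Hspb6 was at -0.08 and Hsf4 at 0.31. The other TRiC and prefoldin subunits had 0 of 9 above 0 with all libraries and 3 of 9 without vehicle replicate 4, the prefoldin subunits Vbp1 and Pfdn6 being at -0.16 and -0.12 with all libraries. The chaperones of the endoplasmic reticulum had 1 of 10 above 0 and then 6 of 10, the HSP90 form Hsp90b1 being at -0.17 and then -0.05, and Canx at -0.16 and then -0.05.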

How the data were processed

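Bulk mRNA was sequenced from mouse spleen CD4+ T cells in 8 libraries. HISAT2 2.0.5 is named in the submitters' processing notes. The counting tool, annotation, genome build and use of strand are not given in the sources used here. Of 54495 genes matched to GENCODE M21 (GRCm38), start and end were equal for 98.33%, and for 33 of the 34 members.

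The authors deposited raw read counts per gene, per the file headers. The FPKM values deposited by the authors equalled count divided by gene length and by a library factor within 1.56e-05%. Log2 fold changes and p-values in the authors' deposited table are cited only where named.

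Counts were tested with edgeR 4.0.16 in R 4.3.3 (filterByExpr, TMM scaling, robust quasi-likelihood F test, no covariate, two-sided). P-values were adjusted by Benjamini-Hochberg over all 13981 genes at a threshold of 0.05, and intervals cover 95%. CPM used TMM-scaled library sizes. No replicates were duplicates: the lowest chi-square per gene between libraries of a group was 2.11. Members, lists and tests were chosen with earlier results of these data known. Members are named by role, and of each further list the up to 2 genes of smallest unadjusted p. Alternatives were DESeq2 1.42.0, limma 3.58.1 (voom, voom with quality weights, trend on log2(FPKM + 1)), other scaling factors and low-count filters, a block for the number in the title, and leaving out each library in turn. Other comparisons in the table were not needed. Libraries held at least 13407295 counts. Counting error weighs more for members of low count, Hspb1, Hspa1a, Hspa1b and Bag3 among them. Its part in their spread was not computed.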

Additional observations from a re-analysis of the deposited data

Results flagged for a closer look

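Of 78 groups of 4 values examined for a library far from the other 3 of its treatment, 18 had such a library. Of the 18, 13 were in vehicle replicate 4. For a single group chance gives about 1 in 20. The 78 groups come from the same 8 libraries and are not independent, so their count cannot be set against that rate. In that library the HSP90 gene Hsp90aa1 was at 1150 CPM against 860 to 885 CPM in the other vehicle libraries, and the mitochondrial HSP70 Hspa9 at 1023 against 798 to 807 CPM. Among HSP70 and HSP90 partners, Hspbp1 was at 118 against 68.3 to 74.2 CPM, St13 at 287 against 237 to 241, Fkbp4 at 253 against 167 to 175 and Chordc1 at 203 against 148 to 153. The TRiC subunits Cct3, Cct4 and Tcp1 were at 588, 453 and 672 CPM, against 447 to 461, 397 to 405 and 482 to 498. Hspa1b was low in it, at 7.10 against 8.82 to 9.05 CPM. The same library had 0.252% mitochondrially encoded counts against 1.27 to 1.48%, early response genes at a sum of 1695 against 1476 to 1501 CPM, and platelet markers at 49.6 against 25.6 to 29.1 CPM. Neither of these sums was raised in all of its genes, Egr1 and Ppbp being lowest in that library.

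Dimethyl succinate replicate 1 stood apart from its group for Hsph1, at 192 CPM against 211 to 212, for Hspbp1, at 82.4 against 72.3 to 72.7, for Cct4, at 366 against 392 to 396, and for Hsf1, at 90.9 against 71.3 to 74.4 CPM. Its early response genes summed to 1665 against 1498 to 1524 CPM. What set these libraries apart was not tested.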

How the results depend on the processing

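No setting called a member. Counts of all genes past the adjusted threshold were 0 with all libraries, 4 by DESeq2, 6 with no low-count filter, 1 with the replicate block, 40 with limma-voom and library quality weights, and 0 to 28 with a library left out (28 without vehicle replicate 4); the cause was not tested. The replicate block gave a median of -0.08 over the members and an unadjusted p of 0.0279 for Tcp1 (edgeR); numbers were not taken to pair samples, because deviations of same-numbered libraries correlated at -0.014, 0.011, 0.056 and 0.13, and 3 of 8 libraries correlated best with their own number. The median over the members was -0.13 to 0.01 with a library left out and -0.01 with quality weights. Of 594 member values under alternatives, 20 had the other sign, and 23 of 33 members had none. With quality weights these were Hsp90ab1 0.0117, Hsph1 0.14, Hspbp1 0.00882, Bag1 0.047, St13 0.0125, Ahsa1 -0.00356 and Fkbp4 0.0518. Over all alternatives, values ran from -0.0826 to 0.0351 for Hsp90ab1, -0.119 to 0.14 for Hsph1 and -0.182 to 0.0501 for Hspe1. They ran from -0.236 to 0.063 for Hspbp1, -0.146 to 0.0697 for Bag1 and -0.0834 to 0.0137 for St13. The range was -0.138 to 0.0801 for Fkbp4 and -0.0473 to 0.0549 for Ahsa1. It was -0.0147 to 0.092 for Hspa4l and -0.00116 to 0.122 for Hsf1. Depth limits Hspb1 and, less so, Hspa1a, Hspa1b and Bag3.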
